A study of Homo sapiens with 6 samples.

Results

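Ribosome biogenesis genes were taken as the genes of the deposited table that carry the KEGG term for ribosome biogenesis in eukaryotes and whose names do not start with SNOR, RNA or MRP. Of the 31142 genes in the table, 76 met this rule, and the 71 with a mean of at least 1 FPKM (fragments divided by transcript length and by the library's mapped fragments) over the 6 libraries were the member genes. Each library came from samples labelled as SKM-1, a myeloid leukemia cell line derived from myelodysplastic syndrome. In 3 samples (S34F) the cells carried a lentivirus with FLAG-tagged U2AF1, a subunit of the splicing factor that binds the 3′ end of introns, with the S34F mutation, and in 3 samples (WT) the same vector carried wild-type U2AF1. All 6 samples shared the line's own wild-type U2AF1 and a time of 96 h and, if the titles hold, the vector with its ubiquitin promoter, green fluorescent protein and puromycin resistance, and selection with puromycin. The methods speak of stably transfected clones without saying how many. The WT samples carry a prefix that the study also uses for negative controls, its protocol names a vehicle control, and its negative controls were cells without the virus, so the WT libraries may lack the vector and the selection. The study calls the RNA samples independent and the treatment triplicate, without saying whether each came from its own transduction or culture, so p-values measure the spread between these samples, which may be technical.

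Ribosome biogenesis begins in the nucleolus, where RNA polymerase I transcribes a long precursor rRNA. UTP complexes, the U3 particle and many further factors fold, modify and cut it within the 90S pre-ribosome. The small and large subunits then mature separately, pass the nuclear pores with export factors, and are completed in the cytoplasm. The pathway draws heavily on the energy of growing cells and is a textbook target of MYC, a transcription factor that binds the E-box. Some genes of the pathway are known from inherited marrow failure syndromes, among them Shwachman-Diamond syndrome (SBDS) and dyskeratosis congenita (DKC1, NOP10, NHP2).

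The member genes differed widely in level, and 1 of the 71, SBDS, separated S34F from WT in every library. Over all genes tested, 3.66% were higher in S34F without overlap and 3.73% were lower. The members' means over the 6 libraries ran from 1.58 to 301 FPKM with a median of 12.9 FPKM, and 5 members (NOP10, FBL, EIF6, NHP2 and RAN) reached a mean of 100 FPKM or more and made up 45% of the members' summed FPKM. Just inside the threshold were NXT2 at 1.58, CSNK2A1 at 2.10 and WDR36 at 2.46 FPKM. The genes left out were SPATA5 at 0.941, XRN1 at 0.931, NXF2 at 0.916, NXF2B at 0.830 and UTP14C at 0.754 FPKM. All 71 members passed the same minimum that every tested gene had to pass, which left 10942 genes tested.

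Promoters were read for the members because the E-box (CACGTG, the same on both strands) is the site bound by MYC. RefSeq windows on GRCh38.p14, from 250 bases before to 50 bases after the annotated start of the gene, were matched for 66 of the 71 members by symbol, and not for MPHOSPH10, NOP58, POP1, SNU13 and TCOF1. The E-box was found in 22 of these 66 members (33.3%), against 13.4% of the 7503 tested genes with a window and 8.77% of all 27305 genes with one. Within 50 bases of the start it was found in 17 members (25.8%), against 5.86% of the tested genes. CCGGAAG, the core of the ETS motif, searched on both strands, was found in 25 of 66 members (37.9%), against 25.5% of tested genes and 12.2% of all genes. CTCGCGAG was found in 1 of 66 members (1.52%), against 2.77% of tested genes and 1.23% of all genes. None of the motifs contains another, and a match describes the sequence only. The 30 bases round the E-box near the start are shown for 8 members of different roles, 5′ to 3′ on the gene's strand, with the E-box in capitals:
WDR43 (chr2:28894658-28894687, plus strand): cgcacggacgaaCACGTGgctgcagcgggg
UTP4 (chr16:69132621-69132650, plus strand): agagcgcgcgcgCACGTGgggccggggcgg
PWP2 (chr21:44107388-44107417, plus strand): tgagctgcggcaCACGTGcgacggccgtga
NOL6 (chr9:33473894-33473923, minus strand): ggcatttccgccCACGTGggaagctatgag
FBL (chr19:39846356-39846385, minus strand): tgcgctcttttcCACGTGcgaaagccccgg
NAT10 (chr11:34105602-34105631, plus strand): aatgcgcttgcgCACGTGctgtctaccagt
GNL3 (chr3:52686026-52686055, plus strand): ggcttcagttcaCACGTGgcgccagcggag
NOP10 (chr15:34343130-34343159, minus strand): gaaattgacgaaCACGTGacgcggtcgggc

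In these windows the first base of the E-box lies 16 bases before the RefSeq start in UTP4, 15 in NAT10 and 11 in NOP10, 1 base after it in PWP2, and 3 bases after it in WDR43, 6 in FBL and GNL3 and 13 in NOL6. The bases around the E-box differ from gene to gene. NOP10, the member with the highest mean, holds another E-box farther upstream, shown here in capitals in the 209 bases before the gene in both RefSeq and GENCODE (chr15:34343178-34343386, minus strand):
NOP10: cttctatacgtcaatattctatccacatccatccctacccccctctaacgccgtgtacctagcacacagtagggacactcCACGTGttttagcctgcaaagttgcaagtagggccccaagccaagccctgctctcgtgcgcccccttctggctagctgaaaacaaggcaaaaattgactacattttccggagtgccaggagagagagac

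SBDS was the only member with no overlap between S34F and WT libraries (all genes tested: 3.66% higher and 3.73% lower in S34F). The 235 bases before it (chr7:66995602-66995836, minus strand) hold none of the motifs, and their letters are therefore all in lower case:
SBDS: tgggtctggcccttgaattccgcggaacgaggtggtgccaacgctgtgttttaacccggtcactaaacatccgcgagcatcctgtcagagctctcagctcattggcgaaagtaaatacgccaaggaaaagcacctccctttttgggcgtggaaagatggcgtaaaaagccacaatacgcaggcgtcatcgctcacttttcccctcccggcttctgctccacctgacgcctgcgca

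Before the comparison, the libraries were examined. The summed FPKM lay between 335673 and 353709, and depth, estimated from the value of 1 fragment in genes with a single exon, was about 20.8 to 26.5 M fragments. U2AF1 itself had 9.18 to 9.48 FPKM in S34F and 7.65 to 8.70 FPKM in WT, a level that cannot tell the alleles apart. Of 12 erythroid markers, 9 had a mean of at least 10 FPKM, with HBE1 (embryonic globin) between 5058 and 5834 FPKM and GATA1 between 142 and 206 FPKM, whereas 9 of 12 monocytic and granulocytic markers had a mean under 1 FPKM, among them MPO, CSF1R, VCAN and FCN1 at or near 0. The line is described as myeloid, and of these myeloid markers CD68, LYZ and ITGAM alone reached a mean of 1 FPKM. The erythroid markers summed to between 12129 and 13893 FPKM in S34F and between 11735 and 12823 FPKM in WT, and the monocytic and granulocytic markers to between 44.6 and 73.7 FPKM in S34F and between 65.1 and 86.1 FPKM in WT. The libraries numbered 3 stood apart from the others in both groups, as described for the members below, and results are therefore also given without them.

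The study asked how the S34F mutation changes gene expression, and for the members S34F was compared with WT for each gene by limma on log2(FPKM + 1). Among the 71 members, 0 had an adjusted p under 0.05 (0% of all 10942 genes had one), and the lowest adjusted p of a member was 1.00. At an unadjusted p under 0.05, 1 member (SBDS) was higher in S34F, against 0.823% of all genes tested, and 0 members were lower, against 1.57% of all genes tested. The median log2 fold change was 0.03 over the members and 0.01 over all genes tested. In bulk RNA, fewer cells of a type and less RNA per cell cannot be told apart.

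The measurements also set limits on how large a difference could have been missed. For 59 of 71 members (83.1%) the 95% interval of the fold change of FPKM + 1 lay inside 1.5-fold in either direction. It did so for 73.7% of all genes tested. This scale shrinks changes of weakly expressed genes, and 26 members had a mean under 10 FPKM, so their FPKM could differ more. The fold changes ran from -0.42 (RPP38) to 0.36 (RPP25) on the log2 scale, and 49 members lay within 0.1 of 0. Of the members, 45 lay above 0 and 26 below, against 5973 above and 4969 below among the 10942 genes tested. The median standard error of a member was 0.15 on the same scale. Among the members, the groups did not overlap for 1 gene higher in S34F (3.66% of all genes tested) and for 0 genes lower in S34F (3.73% of all genes tested).

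**Figure D1:**
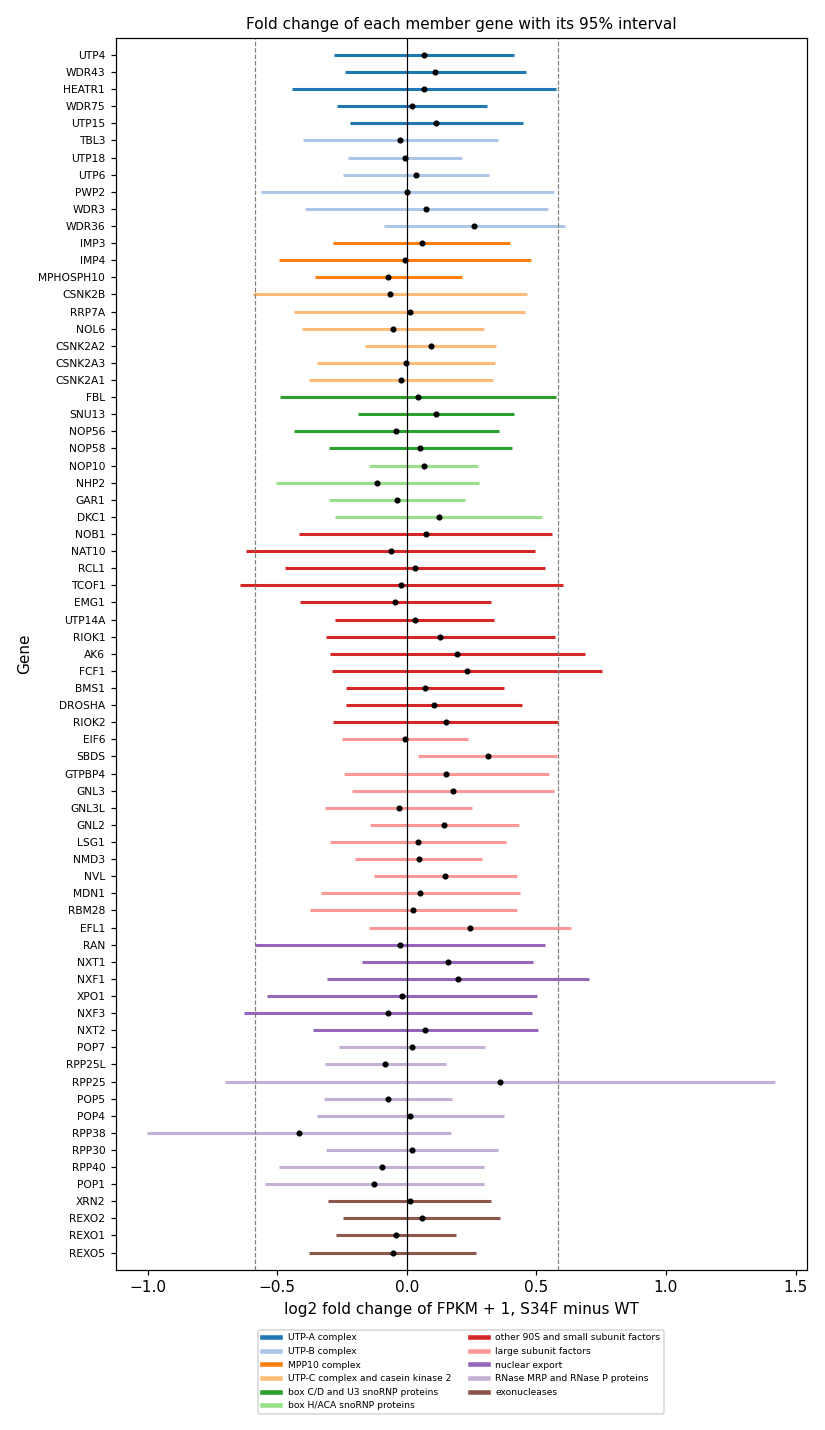
log2 fold change of FPKM + 1 (S34F minus WT, horizontal axis) of each of the 71 member genes (vertical axis), ordered by role; points are limma estimates, bars their 95% intervals, and dashed lines mark 1.5-fold either way. The interval of SBDS runs from 0.04 to 0.58 and does not reach 0, while those of the other 70 members include 0.

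SBDS (ENSG00000126524, chromosome 7 of GRCh38 from 66987677 to 66995601, minus strand) encodes the factor that, with the GTPase EFL1, releases EIF6 from the new large subunit in the cytoplasm. It had 45.05, 47.1 and 54.5 FPKM in S34F replicates 1, 2 and 3 and 37.7, 42.1 and 37.6 FPKM in WT replicates 1, 2 and 3. Every S34F library was above every WT library. The means were 48.9 ± 4.95 FPKM in S34F and 39.1 ± 2.56 FPKM in WT (SD, n = 3 each). The log2 fold change was 0.31, with a standard error of 0.11, and limma gave an unadjusted p of 0.0293 and, after Benjamini-Hochberg adjustment, a p of 1.00. The exact permutation test gave p = 0.1, two-sided, the smallest that 3 against 3 libraries allow. The difference did not pass the adjustment, and the unadjusted p from limma was over 0.05 without S34F replicate 2 (0.0580), without WT replicate 1 (0.0992) and without WT replicate 3 (0.0706). The pseudogene SBDSP1, of which 499 bases match the longest SBDS transcript at 95.4% identity, had 9.41, 9.74 and 14.1 FPKM in S34F and 10.3, 9.54 and 7.80 FPKM in WT, so that reads shared between them could have moved either value.

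The partners of SBDS did not show this separation. EFL1 had 3.12, 3.02 and 4.71 FPKM in S34F and 2.58, 3.26 and 2.74 FPKM in WT, with a log2 fold change of 0.24 (standard error 0.16, unadjusted p = 0.184 from limma). Its groups overlapped, and S34F replicate 3 was the high value. EIF6, which keeps the large subunit from joining the small one too early, had 152, 152 and 130 FPKM in S34F and 147, 150 and 139 FPKM in WT. Its log2 fold change was -0.01, with a 95% interval from -0.25 to 0.23. LSG1, the GTPase that removes the export adaptor NMD3, had 11.8, 11.5 and 16.1 FPKM in S34F and 12.8, 12.8 and 12.1 FPKM in WT. NMD3 itself had 9.47 ± 0.438 FPKM in S34F and 9.16 ± 0.659 FPKM in WT (SD, n = 3 each). Neither gene differed beyond the spread between replicates.

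The 12 large subunit factors had the highest median fold change of the 11 role groups, at 0.10 on the log2 scale. Of the 12, 10 lay above 0, against 5973 of all 10942 genes tested. The libraries numbered 3 entered this value unequally. Replicate 3 differed from the mean of replicates 1 and 2 by a median of 0.02 in S34F and -0.21 in WT for these factors. Without both libraries numbered 3, the log2 fold changes of LSG1 (-0.13), MDN1 (-0.11), GNL3L (-0.05) and NMD3 (-0.04) lay below 0. Those of the other large subunit factors lay above 0, the highest being SBDS at 0.21. GNL3L is named here after its values were seen. Apart from SBDS, 0 of them had an unadjusted p under 0.05 from limma. GNL3 (nucleostemin, a nucleolar GTPase) had 21.0, 23.5 and 19.4 FPKM in S34F and 21.4, 20.7 and 14.7 FPKM in WT. GTPBP4, another nucleolar GTPase of the large subunit path, had 27.1, 29.2 and 23.5 FPKM in S34F and 26.4, 26.9 and 18.8 FPKM in WT. In both genes WT replicate 3 was the lowest library, and the groups overlapped. MDN1, the giant AAA ATPase that strips factors from the pre-60S particle, had 5.32, 4.87 and 4.97 FPKM in S34F and 5.71, 5.44 and 3.61 FPKM in WT. Its S34F libraries lay within the range of WT.

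The UTP complexes load first onto the precursor rRNA. The 5 members of the UTP-A complex all had fold changes above 0, from 0.02 to 0.11 on the log2 scale, and 0 had an unadjusted p under 0.05. Over all genes tested, 5973 of 10942 lay above 0. Without both libraries numbered 3, UTP4 (-0.02) and WDR75 (-0.06) lay below 0, while WDR43, HEATR1 and UTP15 stayed above. WDR75 and UTP15 are named here after their values were seen. HEATR1 (human UTP10) had 9.80, 9.35 and 6.503 FPKM in S34F and 9.55, 9.01 and 5.91 FPKM in WT. UTP4 (cirhin) had 34.4, 32.9 and 30.1 FPKM in S34F and 34.8, 33.6 and 25.2 FPKM in WT. WDR43 had 14.7, 14.3 and 12.7 FPKM in S34F and 14.4, 13.9 and 10.4 FPKM in WT. In all 3 genes the lowest library of each group was replicate 3, and the difference between replicates exceeded that between groups.

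In the UTP-B complex (6 members, median log2 fold change 0.02) WDR36 came closest to a difference. It had 2.97, 3.07 and 2.27 FPKM in S34F and 2.56, 2.18 and 1.71 FPKM in WT, with a log2 fold change of 0.26, a standard error of 0.15, an unadjusted p of 0.1199 and an adjusted p of 1.00 by limma. S34F was the higher library in 3 of 3 pairs with the same replicate number, while the groups overlapped. PWP2 had 8.95, 9.20 and 4.71 FPKM in S34F and 7.88, 7.85 and 6.34 FPKM in WT, so that S34F held both the highest and the lowest library. The MPP10 complex had 3 members, with log2 fold changes from -0.07 to 0.06. Of these, IMP3 had 55.1 ± 7.99 FPKM in S34F and 52.7 ± 5.33 FPKM in WT (SD, n = 3 each), and MPHOSPH10, after which the complex is named, had 4.62 ± 0.494 and 4.91 ± 0.488 FPKM (SD, n = 3 each). In the group of the UTP-C complex and casein kinase 2 (6 members), NOL6 had 18.1 ± 2.17 FPKM in S34F and 18.9 ± 2.71 FPKM in WT (SD, n = 3 each). CSNK2A1, a catalytic subunit of casein kinase 2, had 2.08 ± 0.449 FPKM in S34F and 2.12 ± 0.367 FPKM in WT (SD, n = 3 each). Its level is uncertain, since the single-exon copy CSNK2A3 matches 1359 bases of it at 99.0% identity and had more FPKM, between 6.30 and 8.64.

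**Figure D2:**
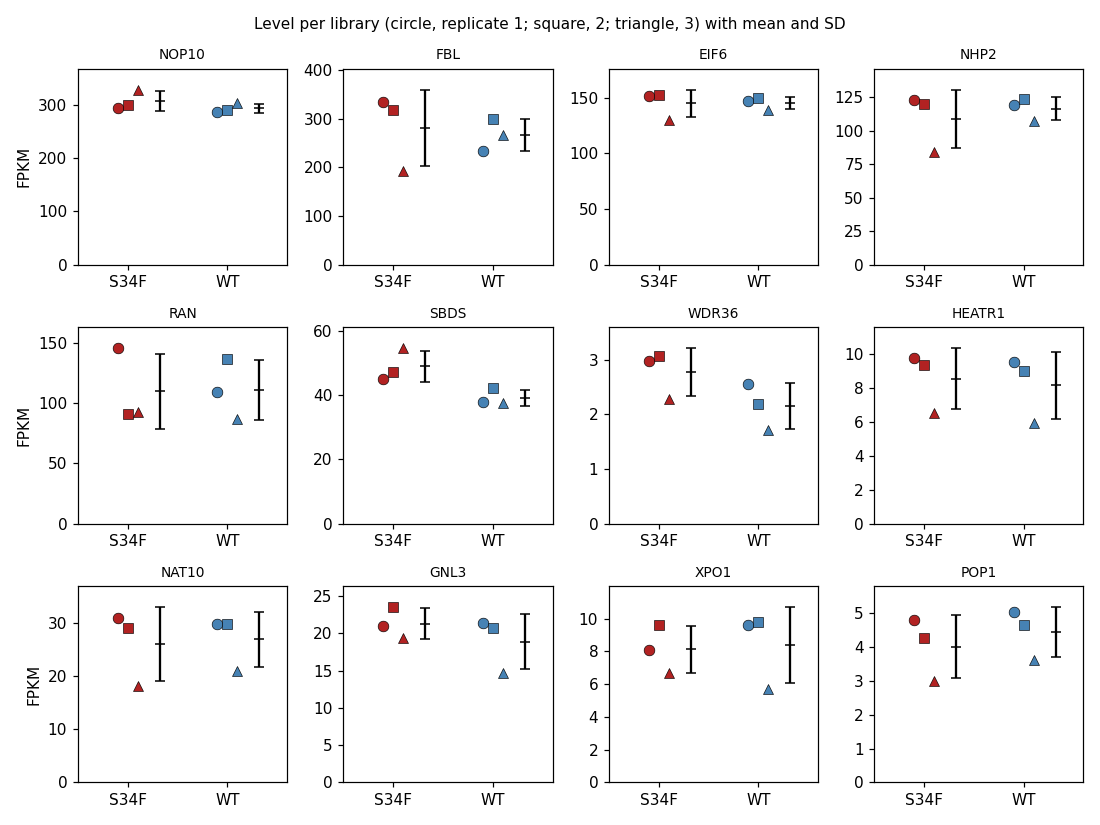
FPKM (vertical axis, from 0) of 12 member genes in each library, S34F in red and WT in blue, with the mean and SD of each group (n = 3) beside the points. SBDS separates the groups. In EIF6, NHP2, WDR36, HEATR1, NAT10, GNL3, XPO1 and POP1 the triangles of replicate 3 are the lowest point of each group.

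The snoRNP proteins guide the chemical modification of rRNA. FBL (fibrillarin, chromosome 19 from 39834458 to 39846414, minus strand), the ribose methyltransferase of box C/D particles, had 335, 318 and 192 FPKM in S34F and 234, 300 and 266 FPKM in WT. S34F again held the highest and the lowest library, and the log2 fold change was 0.04 with a 95% interval from -0.49 to 0.58. NOP56 and NOP58, the core scaffold pair, had 39.8, 39.0 and 31.4 against 40.8, 43.0 and 30.3 FPKM, and 11.2, 12.7 and 10.4 against 12.2, 12.01 and 8.94 FPKM, S34F before WT. SNU13, the RNA-binding member, had 59.2 ± 3.12 FPKM in S34F and 55.0 ± 7.52 FPKM in WT (SD, n = 3 each). In each of the 3 genes both lowest libraries were those numbered 3.

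The 4 box H/ACA proteins, which guide pseudouridine formation and belong to telomerase as well, had log2 fold changes between -0.11 and 0.12. NOP10 (chromosome 15 from 34341713 to 34343177, minus strand), the smallest subunit, had 294, 300.2 and 329 FPKM in S34F and 287, 291 and 303 FPKM in WT. Its groups overlapped, and the 95% interval ran from -0.14 to 0.27 on the log2 scale. DKC1 (dyskerin, the pseudouridine synthase) had 25.5, 20.1 and 16.9 FPKM in S34F and 20.7, 19.3 and 16.6 FPKM in WT. NHP2 had 123, 120 and 84.0 FPKM in S34F and 119, 124 and 107 FPKM in WT, and GAR1 had 30.6 ± 0.651 and 31.5 ± 3.32 FPKM (SD, n = 3 each). The lowest unadjusted p of these 4 genes from limma was 0.488.

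Of the 12 other 90S and small subunit factors, 9 had fold changes above 0, against 5973 of all 10942 genes tested. Their median was 0.07, and 0 had an unadjusted p under 0.05. NAT10, the acetyltransferase that modifies cytidines of small subunit rRNA, had 31.0, 28.98 and 18.1 FPKM in S34F and 29.8, 29.9 and 21.0 FPKM in WT. TCOF1 (treacle), which links the factors of rDNA transcription, had 14.5, 14.0 and 7.68 FPKM in S34F and 13.8, 13.1 and 9.10 FPKM in WT. In both genes replicates 1 and 2 of the groups lay close together and both replicates 3 were far below them. EMG1, a pseudouridine methyltransferase, and BMS1, a GTPase of the 90S particle, had 11.4 ± 2.13 against 11.7 ± 1.03 FPKM and 7.17 ± 0.367 against 6.82 ± 1.02 FPKM (SD, n = 3 each, S34F first). UTP14A had 11.1 ± 0.608 FPKM in S34F and 10.9 ± 1.56 FPKM in WT (SD, n = 3 each). RIOK2, the kinase of late small subunit maturation, had 2.26, 2.94 and 4.26 FPKM in S34F and 2.69, 2.88 and 2.46 FPKM in WT, so that S34F held both its lowest and its highest library.

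The export factors and the rRNA-cutting enzymes completed the list. RAN, the GTPase that gives nuclear transport its direction, had 146, 91.1 and 92.7 FPKM in S34F and 109, 137 and 86.9 FPKM in WT, a spread within groups of over 1.5 times. XPO1 (exportin 1), which carries both subunits out of the nucleus, had 8.07, 9.59 and 6.69 FPKM in S34F and 9.61, 9.80 and 5.70 FPKM in WT. Neither gene separated the groups. The 9 proteins of RNase MRP and RNase P had a median log2 fold change of -0.07. POP1, their largest subunit, had 4.79, 4.25 and 2.98 FPKM in S34F and 5.03, 4.65 and 3.61 FPKM in WT, and RPP40 had 4.74, 5.83 and 3.99 FPKM against 5.63, 5.92 and 4.22 FPKM. Both were lower in S34F in 3 of 3 pairs, with unadjusted p = 0.502 and 0.579 from limma. This group also held the widest fold changes of all members, RPP38 and RPP25, singled out after their values were seen. RPP38 had 6.27, 5.65 and 7.30 FPKM in S34F and 5.63, 11.1 and 10.9 FPKM in WT (unadjusted p = 0.136 from limma). RPP25 had 10.2, 9.27 and 25.7 FPKM in S34F and 7.95, 7.62 and 17.8 FPKM in WT (unadjusted p = 0.448 from limma), with the libraries numbered 3 far above the rest. Of the exonucleases (4 members), XRN2, which trims the ends of precursor rRNA, had 17.6 ± 1.41 FPKM in S34F and 17.6 ± 2.39 FPKM in WT (SD, n = 3 each).

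The fit above was unpaired. In an alternative fit, same-numbered libraries of S34F and WT were treated as pairs, and limma with a replicate block called 3 members higher in S34F at an unadjusted p under 0.05 (SBDS, WDR36 and RPP25), against 1.59% of all genes tested, and 0 lower, against 2.46%. In this fit 0 genes in all had an adjusted p under 0.05 (0%). S34F was higher in 3 of 3 pairs for 13 of 71 members (18.3%), against 13.3% of all genes tested, and lower in 3 of 3 pairs for 5 members (7.04%), against 12%. The 5 members lower in all 3 pairs were MPHOSPH10, RPP40, POP1, NOL6 and NXF3, the last named after its values were seen.

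Across the libraries, the larger pattern of the members was not between S34F and WT but between replicate 3 and the others. Both libraries numbered 3 lay below all 4 other libraries for 34 of 71 members (47.9%), against 25.1% of all genes tested, and above all 4 for 6 members (8.45%), against 17.9%. The median difference of replicate 3 from the mean of replicates 1 and 2 was -0.18 in S34F and -0.25 in WT on the log2 scale, against 0.0045 and -0.06 over all genes tested. These values describe 2 libraries and were not tested. The erythroid markers also summed lower in both libraries numbered 3, to 12129 FPKM in S34F and 11735 FPKM in WT, against 12759 to 13893 FPKM in the other 4 libraries. Of these 12 markers, both libraries numbered 3 lay below the other 4 for 5 and above them for 1, ALAS2. HBE1, the largest part of the sum, was lowest in S34F replicate 3 (5058 FPKM), but in WT replicate 3 (5652 FPKM) it was above the other WT libraries. The part of these markers in the pattern was not tested. WT replicate 3 was the lowest of the 6 libraries for 32 of 71 members (all genes tested: 23.6%). S34F replicate 3 was the lowest for 21 of 71, close to its share over all genes tested (27.3%). All 3 members of the MPP10 complex, 8 of 12 other 90S and small subunit factors, and 3 of 4 box C/D proteins had both libraries numbered 3 below the rest. Of the RNase MRP and RNase P proteins, 3 of 9 lay below and 3 of 9 above, and 0 of 4 exonucleases did either.

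**Figure D3:**
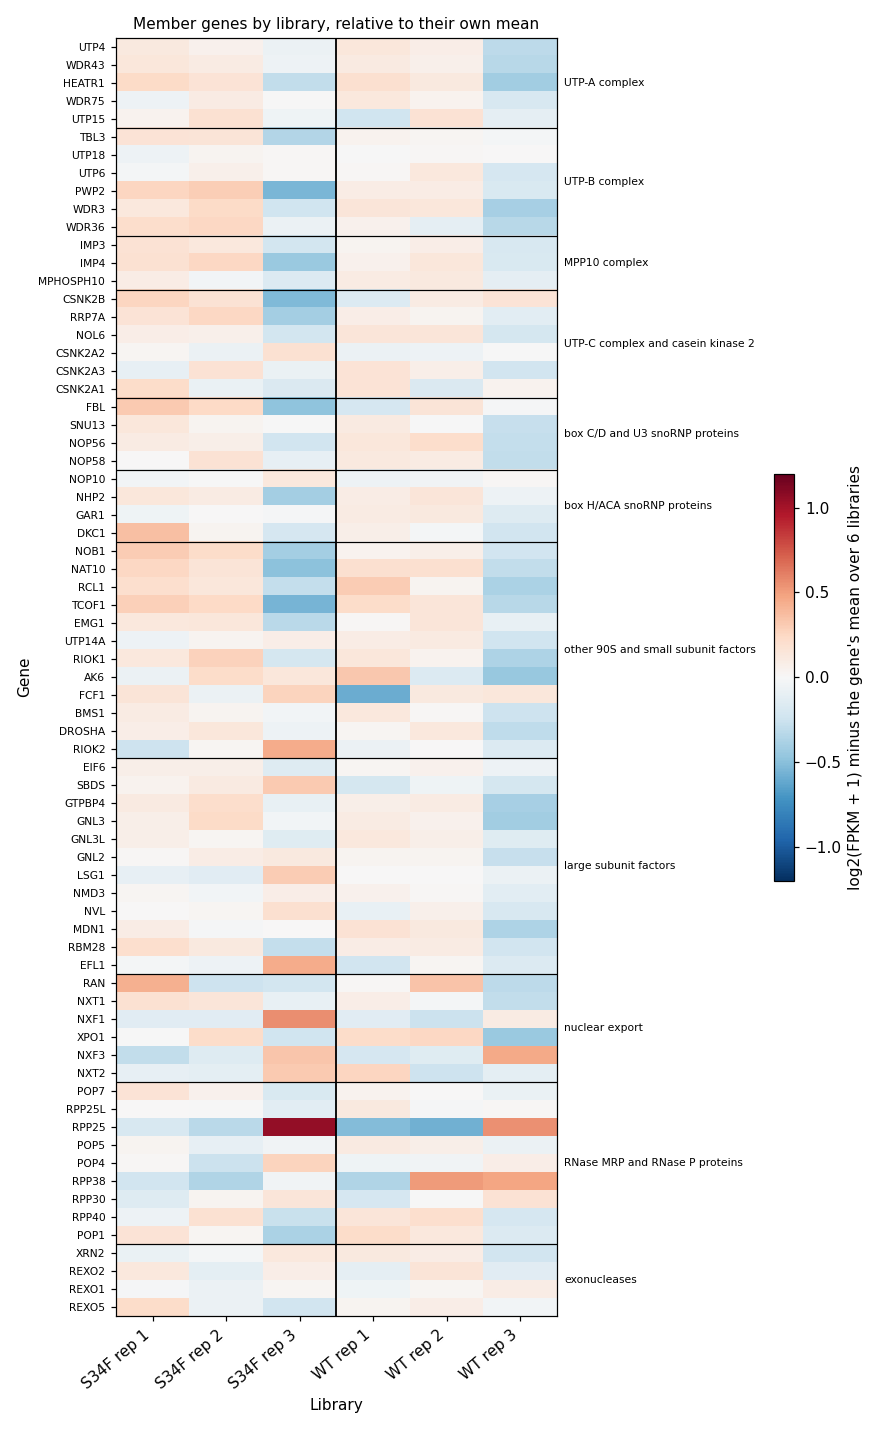
log2(FPKM + 1) of each of the 71 member genes (rows, by role) in each library (columns), minus the gene's mean over the 6 libraries; red is above the mean and blue below. The columns of replicate 3 are mostly blue in both groups, and RPP25 is the strongest exception.

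The members' FPKM summed to 2292, 2197 and 1889 in S34F and to 2069, 2191 and 1935 in WT. As a share of all FPKM this was 0.671%, 0.638% and 0.563% in S34F and 0.594%, 0.635% and 0.547% in WT. The group sums were 2126 ± 211 FPKM (SD, n = 3) and 2065 ± 128 FPKM (SD, n = 3), a difference smaller than the spread within either group, and the lowest library of each group was replicate 3. The box C/D proteins moved most in this sum, with 448, 428 and 290 FPKM in S34F and 349, 411 and 352 FPKM in WT. Of this, FBL alone had 335, 318 and 192 FPKM in S34F and 234, 300 and 266 FPKM in WT. The sum of the box H/ACA proteins stayed between 455 and 472 FPKM in all 6 libraries, but its genes moved in opposite directions. In S34F replicate 3, NHP2 (84.0 FPKM) and DKC1 (16.9 FPKM) were below the other S34F replicates and NOP10 (329 FPKM) was above them, with GAR1 between.

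**Figure D4:**
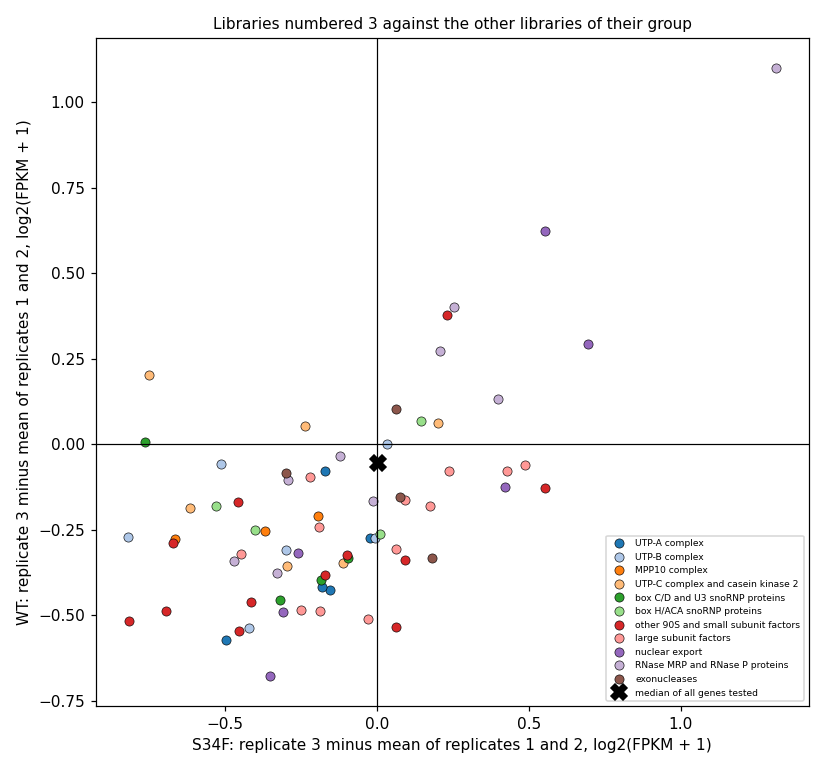
Difference of replicate 3 from the mean of replicates 1 and 2 on log2(FPKM + 1) in S34F (horizontal axis) and in WT (vertical axis) for each of the 71 member genes, coloured by role, with the median of all genes tested as a cross. 44 members lie below 0 on both axes and 10 above 0 on both; over all genes tested these shares are 36.5% and 28.3%.

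Without both libraries numbered 3, limma called 6 members higher in S34F at an unadjusted p under 0.05 (SBDS, WDR36, RPP25, NOB1, PWP2 and TBL3), which is 8.45% of members against 8.16% of all genes tested. It called 2 members lower (GAR1 and XRN2), which is 2.82% against 8.71%. In that fit 0 members had an adjusted p under 0.05, against 0.0731% of all genes tested. The share of members higher in S34F was thus near that of all genes. RPP25, NOB1 and TBL3 are named here after their values were seen.

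Genes of the pathway that the KEGG list lacks were examined in the same way. The 16 genes of the RNA polymerase I machinery had a median log2 fold change of 0.03 and the 14 genes of the RNA exosome one of -0.01, each with 0 genes at an unadjusted p under 0.05 from limma. The list of other small subunit factors (35 genes, median 0.06) also holds genes that act on the large subunit, such as RRS1 and RRP8. Of the 35, 0 were higher and 1 lower at that threshold (all genes tested: 0.823% higher and 1.57% lower). This was NOP9, named after its values were seen, with 7.58, 8.36 and 7.86 FPKM in S34F and 12.6, 9.88 and 10.6 FPKM in WT (unadjusted p of 0.00991, adjusted p of 1.00 by limma). All its S34F libraries were below all its WT libraries. The groups also did not overlap for DDX52 and RRP8, likewise named after their values were seen, which were higher in S34F with log2 fold changes of 0.19 and 0.13 (unadjusted p = 0.155 and 0.200 from limma). Over all genes tested, 3.66% were higher and 3.73% lower without overlap. Of 49 other large subunit factors (median 0.04), 0 had an unadjusted p under 0.05, and the groups did not overlap for 1, DDX55, which was higher in S34F with a log2 fold change of 0.24 (unadjusted p = 0.0772 from limma). Both libraries numbered 3 lay below the other 4 for 34 of these 49 large subunit factors and 16 of the 35 listed as small subunit factors. They did so for 7 of the 14 exosome genes and 7 of the 16 RNA polymerase I genes. Over all genes tested this share was 25.1%. They lay above the other 4 for 2 of the 49, 2 of the 35, 2 of the 14 and 0 of the 16, against 17.9% of all genes tested.

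MYC, the textbook regulator of this pathway, had 1.19, 1.23 and 1.10 FPKM in S34F and 28.3, 1.24 and 10.01 FPKM in WT. WT replicate 2 was thus close to the S34F libraries, while WT replicate 1 was far above all others. Its log2 fold change was -2.05, with a standard error of 0.83, an unadjusted p of 0.0440 and an adjusted p of 1.00 by limma. Between WT replicate 1 and WT replicate 2, the 22 members with an E-box had a median log2 difference of -0.0017 and 10 of them were higher in replicate 1. The 44 members with a window but no E-box had a median of -0.02, and 19 of them were higher in replicate 1. Over all genes tested the median was 0.0054, and 5671 of 10942 were higher in replicate 1. Single members went either way between these 2 libraries, such as FBL with 234 and 299.6 FPKM and RPP38 with 5.63 and 11.1 FPKM in WT replicates 1 and 2, and the part of MYC in these levels was not tested. Between S34F and WT the median log2 fold change was 0.03 with an E-box and 0.04 without. In replicate 3 against replicates 1 and 2 it was -0.17 in S34F both with and without an E-box, and -0.34 with and -0.17 without in WT.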

How the data were processed

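RNA of 6 samples, 3 S34F and 3 WT, was sequenced on an Illumina X10 system. The authors deposited 1 table with FPKM per gene and library, and the submitters' processing notes name StringTie and edgeR without versions. The aligner, genome build and annotation are not given in the sources used here. The table holds no counts, and its fold changes, p-values and q-values of the authors' own comparison were not used. The member genes, the gene lists and the tests were chosen with earlier results of these data known.

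S34F was compared with WT by limma 3.58.1 (R 4.3.3) on log2(FPKM + 1), two-sided and with a mean-variance trend, for the 10942 genes whose mean reached 1 FPKM, with Benjamini-Hochberg adjustment over all of them. On this scale the changes of weakly expressed genes appear smaller than they are. Named members were also tested by exact permutation over the 6 libraries where stated, and the script was tested on simulated data. Genes named were members with an unadjusted p under 0.05, members whose groups did not overlap, the 5 highest, those next to the threshold, and representatives of each role. The exact permutation test cannot go below 0.1.

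Deviations from the group mean correlated across genes at 0.212, 0.174 and 0.380 between libraries numbered 1, 2 and 3, and the study speaks of pairs. Same-numbered samples were therefore treated as pairs in the fit with the replicate block and in the counts over pairs. The main fit, which gave the other p-values, standard errors and intervals, was unpaired. Differently numbered libraries 1 and 2 also correlated, at 0.197 and 0.134. Positions were those of GENCODE 29 (GRCh38), in which 31002 of the 31142 identifiers were found. Promoters came from RefSeq (GRCh38.p14), and transcripts were compared with blastn 2.17.0. Alternatives were other pseudocounts, filters and scalings, no trend, robust variances, the replicate block, and libraries left out. Depth was estimated from FPKM, so that no counting intervals are given. Python 3.11.15 was used for the descriptions.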

Additional observations from a re-analysis of the deposited data

Results flagged for a closer look

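UTP14C, which carries the KEGG term but stayed under the minimum of 1 FPKM and so entered no comparison, had 0.855, 1.18 and 1.86 FPKM in S34F and 0.0309, 0.307 and 0.284 FPKM in WT. Every S34F library was above every WT library, and the ratio of the means was 6.28. In a fit without a minimum its unadjusted p was 0.00365 and its adjusted p 0.999 from limma. UTP14C lies on chromosome 13 from 52024691 to 52033600 and overlaps ALG11 on the same strand, which had 0.473, 0.535 and 0.685 FPKM in S34F and 0.654, 0.931 and 0.830 FPKM in WT. Its longest transcript matches 2469 bases of UTP14A at 93.9% identity, and the part of shared reads in its values was not tested.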

How the results depend on the processing

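The count of members higher in S34F was 1 under other pseudocounts, filters, scalings and variance settings. Over all genes tested, 73 (upper quartile scaling) to 93 (pseudocount 0.1) of 10942 were higher under these settings. With other filters 41 of 5649 (minimum of 5 FPKM) and 323 of 31142 (no filter) were higher. The members' count was 3 with the replicate block (all genes tested: 1.59%) and 6 without both replicates numbered 3 (all genes tested: 8.16%). In the latter fit the count of members lower in S34F was 2 (all genes tested: 8.71%). With each library left out in turn, the count of members higher ran from 0 to 4 and the count lower from 0 to 1. It was 4 higher without S34F replicate 3, where 576 of all 10942 genes tested were higher. It was 0 higher without S34F replicate 2 (103 of all genes tested) and without WT replicate 3 (137 of all genes tested). Over all genes tested, 95 to 584 were lower in these fits. The members' median log2 fold change ran from -0.03 (without WT replicate 3) to 0.08. The cause of these moves was not tested. Of 584 values of the 37 named members under the 16 alternatives, 562 either kept both direction and call, or stayed over an unadjusted p of 0.05 and moved by at most 1 standard error. XRN2 turned to -0.16 (unadjusted p = 0.0314 from limma) without both replicates numbered 3. The depth of the libraries is known only approximately, which limits statements on the lowest members.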
